A study of Mus musculus with 2 samples.

Results

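The 9 genes described here, Smad2, Smad3, Smad4, Smad7, Skil, Ski, Tgif1, Pmepa1 and Tgfbi, carry TGFβ signals from the receptor to DNA, restrain them, or are switched on by them. They were chosen by name, for their place in the pathway and with earlier results of these data known, from the 27998 genes of a single-cell RNA sequencing study of mouse tendon, in which 17393 genes had at least 1 count. The study removed the TGFβ type II receptor from tendon cells and asked what became of those cells. Cells were released with enzymes from the fore- and hindlimb tendons of 2 pups per library at P7, day 7 after birth, without the scraping step that the study used for its cultured cells.

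The data hold 1 library labelled mutant, in which a floxed Tgfbr2 gene was deleted by ScxCre (Tgfbr2 f/-;ScxCre), and 1 control library. The control sample is called wild type in its title and genotype label but Het in its description, and its genotype is therefore called control here. Per the study's methods, all mice carried the tendon reporter ScxGFP and the Cre reporter RosaT. ScxCre acts in cells that express Scx, the transcription factor scleraxis of tendon progenitors and tenocytes. Cells that never expressed Scx thus keep the floxed allele, while the other allele (-) is missing in all cells of the mutant. Cre activity in tenocytes is not uniform before birth. The study states that all tenocytes are targeted only in early postnatal stages. Its staining showed that mutant tendons had lost almost all of the receptor by birth. The counts of Scx include transcripts of the ScxGFP transgene, so Scx levels below are not those of the endogenous gene.

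TGFβ ligands bring the type II and type I receptors together, and the type I receptor then phosphorylates SMAD2 and SMAD3. These receptor-activated proteins join SMAD4, enter the nucleus and bind DNA beside other transcription factors, while SMAD7 blocks the receptor and SKI, SKIL and TGIF1 recruit corepressors to the SMAD complex. Smad7, Skil, Tgif1, Pmepa1 and Tgfbi are known as genes that TGFβ induces in many cell types, and several of their products feed back on the pathway. Loss of TGFβ signalling in the limb mesenchyme of mouse embryos is known to prevent tendon formation.

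Each cell was placed in a class by the unique molecular identifiers (UMIs, counted mRNA molecules) of marker genes. Cells with 30 or more Scx UMIs per 10000 were called Scx-high, and other cells with 5 or more UMIs over Ly6a, Cd34, Dpt, Lum and Col3a1 were called Scx-low fibroblasts. Immune, mural (pericyte and smooth muscle) and endothelial cells had 5 or more UMIs over a list of markers of that type. The control library held 1154 Scx-high cells, 712 Scx-low fibroblasts, 180 immune, 128 mural and 22 endothelial cells of 2364. The mutant library held 221, 1816, 194, 79 and 29 of 2592. Total UMIs were 9451606 and 8250248, and the libraries shared 2 cell barcodes.

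The class names were checked against 6 tenocyte genes that were not part of the class rules, Tnmd, Fmod, Mkx, Col1a1, Thbs4 and Comp. Each was higher in Scx-high cells than in Scx-low fibroblasts of the same library. Between control and mutant Scx-high cells, Fmod fell from 5363 to 2576 CPM (UMIs per 1000000), Mkx from 129 to 75.3, Col1a1 from 73942 to 21396 and Comp from 584 to 390.4. Thbs4 went the other way, from 1151 to 1868. Tnmd, a tenocyte membrane protein, had 7481 CPM in the Scx-high cells of the control library and 5649.9 in those of the mutant library. In Scx-low fibroblasts it had 1165 and 1053 CPM. The summed levels of the immune, mural and endothelial lists lay between 13.3 and 42.1 CPM in Scx-high cells. Cells with 5 or more UMIs over such a list were kept out of the Scx-high class, so these low levels follow from the rule. The summed level of the 5 fibroblast genes in Scx-high cells was 689.8 CPM in the control library and 5739 in the mutant library. These cells thus differed between the libraries in more genes than those described here. All 5 are among the genes that the study lists as most raised in mutant cells of these same libraries. Their rise is therefore no independent finding. All 11 immune markers were found in the immune cells of each library, and all 10 endothelial markers in the endothelial cells. The same lists defined these classes, so this is no check of their names. Haemoglobin-rich cells, which should lack the 9 genes, gave the level of free RNA, and there each member had 0 to 3 UMIs in the 88 control cells and 0 to 2 in the 79 mutant cells. A count of 0 in them allows up to 6.13 and 9.01 CPM, and this floor covers counting error only.

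Levels are UMIs summed over the cells of a class and scaled to 1000000. Each group is 1 library, so the spread between replicates is not known, and differences were not tested. Every interval below is an exact 95% interval that covers counting error only, and the genotype cannot be told apart from the pups, the day or the library. A ratio of at least 2-fold, among genes with at least 50 UMIs over the cells compared, was used as a rule of size.

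Tgfbr2 (ENSMUSG00000032440), the gene the Cre was meant to delete, lies on the minus strand of chromosome 9, from 116084293 to 116175360 of GRCm38. It had 146 UMIs in the Scx-high cells of the control library and 49 in those of the mutant library. Its level was 30.4 CPM in the first and 47.9 in the second, a ratio of 1.58 (1.12 to 2.19). In Scx-low fibroblasts the levels were 74.2 and 72.6 CPM. Reads were taken at the 3′ end of the transcript, and such reads can remain when an upstream floxed segment is lost, so these values check neither the labels nor the deletion.

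In Scx-high cells, the largest difference among the 9 genes was that of Pmepa1, a membrane protein that binds receptor-activated Smads and is a TGFβ target. It stood at 46.4 CPM (40.5 to 52.9) in the control library and at 382 CPM (345 to 421) in the mutant library, 8.22-fold (6.96 to 9.74) higher. Smad7, Skil and Tgif1, which also encode inhibitors of the pathway, were 1.83-fold to 2.09-fold higher in the mutant library, while Ski and Tgfbi were lower. The receptor Smads and Smad4 had intervals that included a ratio of 1. The study reports that most cells of mutant tendons had lost ScxGFP at P7. It proposes that those still positive were newly recruited, since some had weak or no Cre reporter. Whether the mutant Scx-high cells are such cells, and whether they had lost the receptor, was not tested.

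Of the 9 members, 3 were at least 2-fold higher in mutant Scx-high cells (Smad7, Pmepa1 and Tgif1) and 0 were at least 2-fold lower. Over all 7331 genes measured in this comparison, 10.6% were at least 2-fold higher and 5.67% at least 2-fold lower. The median log2 ratio was 0.63 for the members and 0.27 for all genes. Beside that shift, the 20 most abundant genes took 30.1% of the UMIs of control Scx-high cells and 17.7% of those of mutant Scx-high cells. Relative to the median gene, the log2 ratio was 2.77 for Pmepa1, 0.79 for Smad7 and 0.77 for Tgif1, so only Pmepa1 stayed past 2-fold on that scale.

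**Figure D1:**
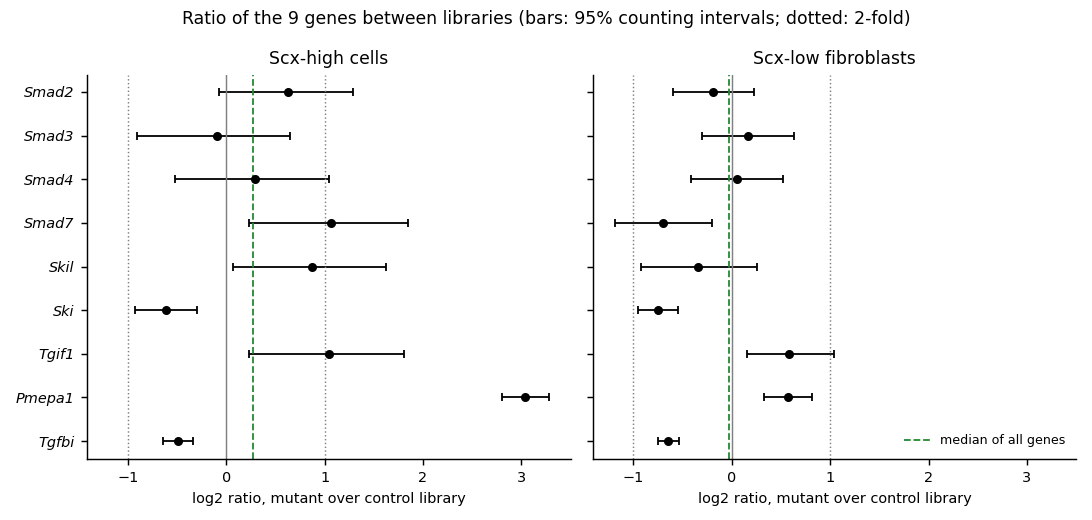
Log2 ratio of each of the 9 genes, mutant over control library, in Scx-high cells (left) and Scx-low fibroblasts (right), with 95% counting intervals as bars, dotted lines at 2-fold and a dashed line at the median of all genes. Pmepa1 stands at 3.04 in Scx-high cells and 0.57 in Scx-low fibroblasts, Ski and Tgfbi lie below 0 in both, and Smad7 lies above 0 on the left and below 0 on the right.

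In Scx-low fibroblasts the members differed less between the libraries. The study reports that ScxGFP-negative cells within mutant tendons came from tenocytes. In wild-type tendon it found Sca-1, the product of Ly6a, and CD34 in the epitenon, the cell layer around the tendon. In mutant tendon the tendon cells themselves also stained for both. Whether the Scx-low fibroblasts of both libraries share an origin was not tested, so these ratios may compare different cells. Pmepa1 was 1.49-fold (1.26 to 1.76) higher in the mutant library and Tgif1 was higher by 0.58 on the log2 scale (ratio interval 1.11 to 2.06), while Smad7, Ski and Tgfbi were lower. None of the 9 reached 2-fold in either direction, against 4.15% of 9155 genes at least 2-fold higher and 4.40% at least 2-fold lower. The median log2 ratio was -0.19 for the members and -0.03 for all genes.

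The receptor-activated Smads come first among the members. Smad2 (ENSMUSG00000024563) had 79 UMIs in control Scx-high cells, 26 in mutant Scx-high cells, 77 in control Scx-low fibroblasts and 143 in mutant Scx-low fibroblasts. Its levels in these groups were 16.4, 25.4, 28.7 and 25.2 CPM, lowest in control Scx-high cells. The ratio of mutant to control was 1.55 (0.953 to 2.44) in Scx-high cells and 0.877 (0.660 to 1.17) in Scx-low fibroblasts, and both intervals include 1. Within the control library, Smad2 was 1.75-fold (1.26 to 2.42) lower in Scx-high cells than in Scx-low fibroblasts.

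Smad3 (ENSMUSG00000032402, chromosome 9 from 63646767 to 63757994 of GRCm38, minus strand) encodes the second receptor-activated Smad, which binds DNA directly. Its level was 18.7 CPM in control and 17.6 in mutant Scx-high cells, and 21.6 and 24.1 in Scx-low fibroblasts. The 4 levels lay between 17.6 and 24.1 CPM, and none of the ratios computed between them had an interval that excluded 1. In mural cells it was lower, at 8.30 CPM in the control library with 5 UMIs and 4.13 in the mutant library with 1 UMI.

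Smad4 (ENSMUSG00000024515) encodes the shared partner of the TGFβ and BMP branches. It stood at 15.2 and 18.6 CPM in control and mutant Scx-high cells and at 22.0 and 22.7 in Scx-low fibroblasts. The ratios between libraries, 1.22 (0.697 to 2.05) and 1.03 (0.753 to 1.43), had intervals on both sides of 1. With 19 UMIs in mutant Scx-high cells, a difference within the first interval was not detectable at this depth.

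Smad7 (ENSMUSG00000025880), the inhibitory Smad, differed between the libraries in opposite directions in the fibroblast classes, and the difference between the classes was not tested. Control Scx-high cells had 45 UMIs or 9.36 CPM (6.83 to 12.5), and mutant Scx-high cells had 20 UMIs or 19.6 CPM (12.0 to 30.2), a ratio of 2.09 (1.17 to 3.61). Scx-low fibroblasts had 63 UMIs or 23.5 CPM (18.1 to 30.1) in the control library and 82 UMIs or 14.4 CPM (11.5 to 17.9) in the mutant library, 1.63-fold (1.15 to 2.29) lower. Scx-high cells thus had the lower Smad7 level of both classes in the control library and the higher level in the mutant library. In the control library Smad7 was 2.51-fold (1.68 to 3.76) lower in Scx-high cells, and in the mutant library the ratio of Scx-high to Scx-low cells was 1.35 (0.787 to 2.23). The highest levels of the control library were in endothelial cells, at 70.1 CPM from 6 UMIs, and in mural cells, at 53.1 CPM from 32 UMIs, and their intervals overlap.

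The share of Scx-high cells with a Smad7 UMI was read as counted and after thinning. Median depths before thinning were already close, at 4289.5 UMIs in the control and 4269 in the mutant library. As counted it was 3.73% (2.71 to 4.99) in the control library and 8.60% (5.26 to 13.1) in the mutant library. With each cell thinned to 1500 UMIs, it was 1.40% (0.787 to 2.30) and 1.97% (0.539 to 4.97), intervals that overlap widely. Thinning discards counts in both libraries, and these shares rest on 15 and 4 cells, so they do not show an effect of depth. In Scx-low fibroblasts the shares were 7.58% and 4.24% as counted, and the thinned shares were 4.02% (2.67 to 5.80) and 1.45% (0.934 to 2.16), which do not overlap. The thinning left out 84 control and 18 mutant Scx-high cells, and 41 and 165 Scx-low fibroblasts, with fewer UMIs.

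**Figure D2:**
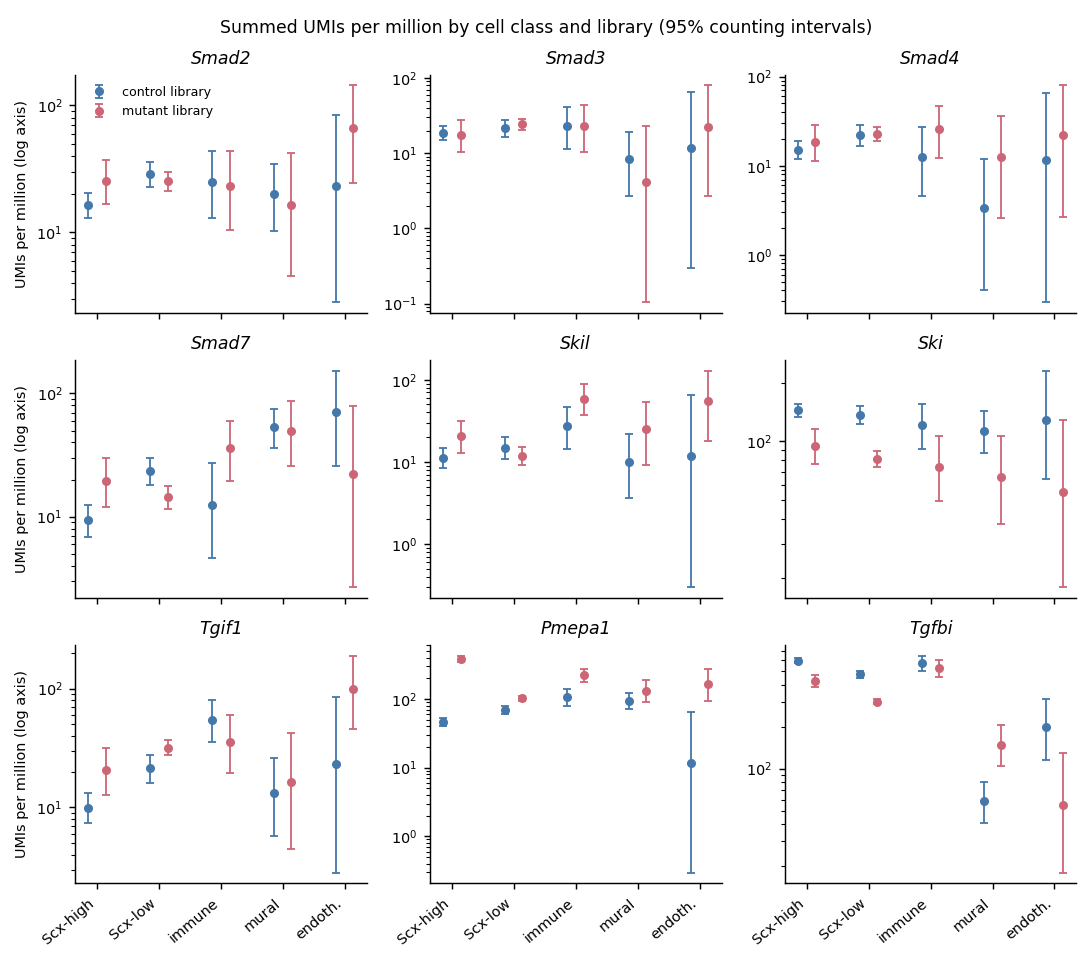
CPM (log axis) of the 9 genes in 5 cell classes of the control library (blue) and the mutant library (red), with 95% counting intervals as bars. Ski is lower and Pmepa1 higher in the mutant library in all 5 classes, and intervals are widest in endothelial cells, with 22 and 29 cells.

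The corepressors Skil and Ski, which bind the Smad complex and silence its targets, differed in opposite ways in Scx-high cells. Skil (ENSMUSG00000027660, chromosome 3 from 31095058 to 31122577 of GRCm38, plus strand) had 54 UMIs in control and 21 in mutant Scx-high cells. Its levels there were 11.2 and 20.5 CPM, a ratio of 1.83 (1.05 to 3.08). In Scx-low fibroblasts the levels were 14.9 and 11.8 CPM, 1.26-fold (0.832 to 1.90) lower with an interval that included 1. Skil was highest in immune cells, at 27.1 CPM in the control library and 58.9 in the mutant library, from 13 and 23 UMIs.

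Ski (ENSMUSG00000029050, chromosome 4 from 155154075 to 155222592 of GRCm38, minus strand) was lower in the mutant library in every class. In Scx-high cells it had 696 UMIs or 145 CPM in the control library and 97 UMIs or 94.9 CPM in the mutant library, 1.53-fold (1.23 to 1.91) lower. In Scx-low fibroblasts it stood at 137 and 81.2 CPM, 1.68-fold (1.46 to 1.93) lower. Immune cells had 121 and 74.2 CPM, mural cells 113 and 66.1, and endothelial cells 129 and 55.1, the last from 11 and 5 UMIs. The interval of the ratio excluded 1 in both fibroblast classes and in immune cells, and not in mural or endothelial cells. Between the classes of a library Ski differed little, and the ratio of Scx-high to Scx-low cells was 1.06 (0.933 to 1.21) in the control and 1.17 (0.929 to 1.46) in the mutant library. The lower Ski level of the mutant library thus stood in both fibroblast classes and in immune cells, and its cause was not tested.

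Tgif1 (ENSMUSG00000047407, chromosome 17 from 70844205 to 70853546 of GRCm38, minus strand) encodes a homeobox corepressor of SMAD2. Its level was 9.99 CPM in control Scx-high cells and 20.5 in mutant ones, from 48 and 21 UMIs, a ratio of 2.06 (1.17 to 3.50). Scx-low fibroblasts had 21.3 and 31.9 CPM. In the control library Tgif1 was 2.13-fold (1.42 to 3.19) lower in Scx-high than in Scx-low cells, and in the mutant library the ratio was 0.644 (0.389 to 1.01). The immune cells of the control library had the highest level of that library, 54.3 CPM (35.4 to 79.5).

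The upstream sequences of Tgfbi, Ski and Tgif1 are shown because these are the members with a RefSeq promoter at hand whose ratio between libraries excluded 1 in the same direction in both fibroblast classes. Each runs 5′ to 3′ on the strand of the gene, on GRCm38.p6, from 250 bases before the RefSeq start to the last base outside the GENCODE gene. Tgif1 has several RefSeq starts, and only the outermost is shown, since the others lie inside the gene. Capitals mark matches to letters that Smads are known to bind, which are CAGACA with its palindrome GTCTAGAC as well as GGCGC beside GGCCG. The AP-1 motif TGANTCA was searched too. Both strands were searched and overlapping matches were counted separately.
Tgfbi, chr13:56609336-56609522, plus strand: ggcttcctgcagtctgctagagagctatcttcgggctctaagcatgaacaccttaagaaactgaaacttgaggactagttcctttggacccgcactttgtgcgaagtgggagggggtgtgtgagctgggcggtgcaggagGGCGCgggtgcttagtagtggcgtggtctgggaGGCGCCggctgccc
Ski, chr4:155222593-155222785, minus strand: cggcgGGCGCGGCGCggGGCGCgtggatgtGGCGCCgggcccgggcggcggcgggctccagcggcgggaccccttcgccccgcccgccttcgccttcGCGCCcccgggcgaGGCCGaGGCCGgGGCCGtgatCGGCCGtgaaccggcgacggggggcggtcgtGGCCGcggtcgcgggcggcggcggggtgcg
Tgif1, chr17:70853547-70853782, minus strand: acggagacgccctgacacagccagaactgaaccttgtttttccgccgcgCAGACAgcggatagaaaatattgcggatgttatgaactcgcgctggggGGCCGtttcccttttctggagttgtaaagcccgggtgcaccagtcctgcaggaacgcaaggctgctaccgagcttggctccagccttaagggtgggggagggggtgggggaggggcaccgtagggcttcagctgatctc

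In these stretches Tgfbi had 3 matches to GGCGC, Ski had 6 to GGCGC and 6 to GGCCG, and Tgif1 had 1 to CAGACA and 1 to GGCCG. Around the other Tgif1 starts, the 250 bases before the start held matches to GGCCG or GGCGC, and in a single case also to CAGACA. None of the 3 stretches shown held GTCTAGAC or TGANTCA. Over the 250 bases before the start of all 32851 RefSeq promoters, 32.0% held GGCGC, 30.4% GGCCG, 17.1% CAGACA, 0.167% GTCTAGAC and 6.75% TGANTCA, so the matches found are common ones. The stretches were 59.4%, 86.5% and 59.7% G or C, which bears on how often GC-rich letters occur. A match is a description of the letters and not a binding site.

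Pmepa1 (ENSMUSG00000038400, chromosome 2 from 173224458 to 173276533 of GRCm38, minus strand) was followed further because its difference was the largest. It had 223 UMIs in the 1154 control Scx-high cells and 390 in the 221 mutant Scx-high cells. At least 1 UMI was found in 15.3% (13.2 to 17.5) of the control cells and 62.0% (55.2 to 68.4) of the mutant cells, at median depths of 4289.5 and 4269 UMIs. Thinned to 1500 UMIs per cell, the shares were 6.82% (5.39 to 8.50) and 37.4% (30.8 to 44.5). In haemoglobin-rich cells, with median depths of 5682 and 4451 UMIs, the share was 2.27% in the control library, and 0 of 79 cells in the mutant library, which allows up to 3.80%.

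The higher level was spread over many mutant Scx-high cells. After thinning, 26.6% of them had 1 UMI of Pmepa1, 7.39% had 2, 2.46% had 3 to 5 and 0.985% had 6 or more. The tenth of these cells with the most Pmepa1, 23 cells, held 41.3% of its UMIs, and the highest count in a cell was 11. Among control Scx-high cells, 6.07% had 1 UMI and 0.654% had 2 after thinning.

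**Figure D3:**
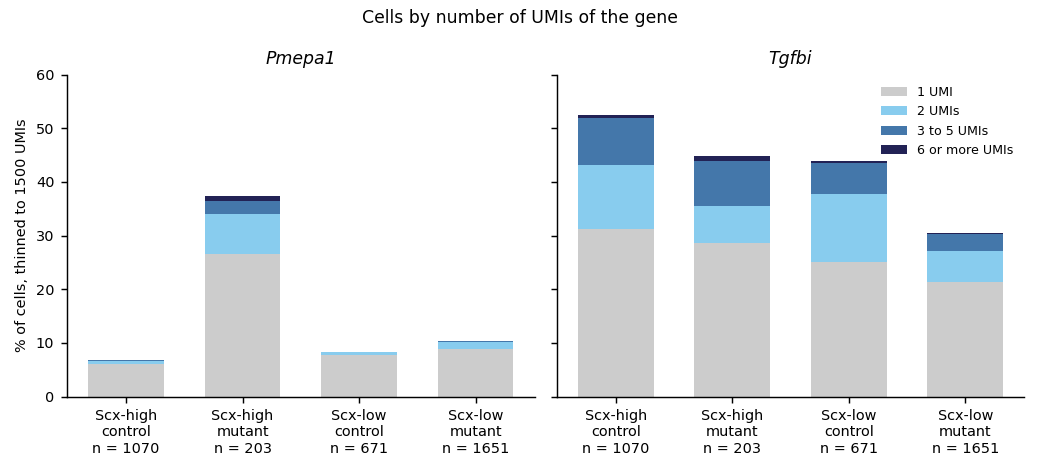
Share of cells (%) with 1, 2, 3 to 5 and 6 or more UMIs of Pmepa1 (left) and Tgfbi (right) after each cell was thinned to 1500 UMIs, in Scx-high cells and Scx-low fibroblasts of each library, with the number of cells below each bar. For Pmepa1 the mutant Scx-high bar reaches 37.4% and the other bars lie between 6.82% and 10.4%.

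Within the mutant library Pmepa1 was 3.72-fold (3.26 to 4.24) higher in Scx-high cells than in Scx-low fibroblasts, which had 103 CPM (94.4 to 111). Within the control library the classes stood in the opposite order, with 46.4 CPM in Scx-high cells and 69.0 (59.4 to 79.7) in Scx-low fibroblasts, 1.49-fold (1.22 to 1.82) lower in the first. Counting the 9 members, 1 was at least 2-fold higher in mutant Scx-high than in mutant Scx-low cells, namely Pmepa1, and 0 were lower, against 4.72% and 11.6% of 8458 genes. In the control library 0 were at least 2-fold higher in Scx-high cells and 2 were lower, Smad7 and Tgif1, against 5.07% and 17.7% of 8404 genes. The median log2 ratio of all genes in the control library was -0.43, and relative to it neither Smad7 nor Tgif1 reached 2-fold. Pmepa1 stood at -0.14 relative to that median, so its lower level in control Scx-high cells was near that of the median gene.

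Scx-high cells, Scx-low fibroblasts and unassigned cells, which met no class rule, were also ordered by their Scx count. Scx was left out of the total, and cells of other classes were not included. In the mutant library Pmepa1 stood at 89.9 CPM in the 1710 cells with under 5 Scx UMIs per 10000, at 195 from 5 to 30, at 251 from 30 to 100, at 409 from 100 to 300 and at 516 (442 to 598) in the 63 cells with 300 or more. Each range was higher than the range before it, but the intervals of the second and the third range overlapped, as did those of the fourth and the fifth. In the control library the same ranges held 67.8, 68.9, 39.8, 43.3 and 58.6 CPM, with no such order. The ratio of mutant to control was 1.33 (1.09 to 1.62) in the lowest Scx range, 2.83 in the next, then 6.31, 9.45 and 8.80 (6.75 to 11.6).

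**Figure D4:**
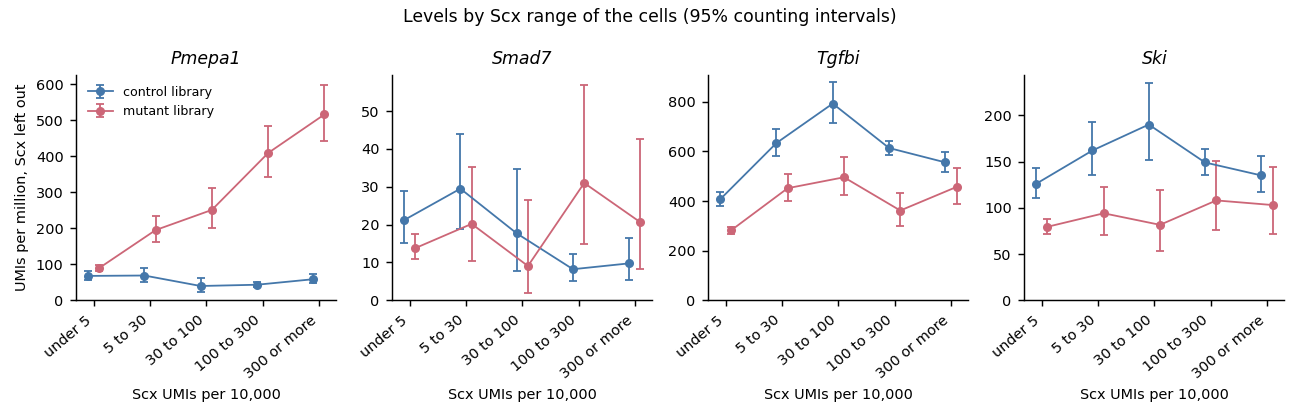
CPM, with Scx left out of the total, of Pmepa1, Smad7, Tgfbi and Ski in cells of 5 ranges of Scx UMIs per 10000, for the control library (blue) and the mutant library (red), with 95% counting intervals. Pmepa1 of the mutant library goes from 89.9 to 516 over the ranges while the control library stays between 39.8 and 68.9, and Ski and Tgfbi of the mutant library lie below those of the control library in all 5 ranges.

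Smad7 differed in direction within the same ranges. It was lower in the mutant library in the 3 ranges under 100 Scx UMIs per 10000, with a ratio of 0.650 (0.437 to 0.979) in the lowest range. The ratio was 0.683 (0.311 to 1.42) from 5 to 30 and 0.513 (0.0876 to 2.14) from 30 to 100. Both of these intervals include 1, and the second ratio rests on 3 mutant and 8 control UMIs. Smad7 was higher in the 2 ranges above, with ratios of 3.76 (1.60 to 8.22) and 2.11 (0.721 to 5.59), the latter with an interval that includes 1. Only 10 and 7 mutant UMIs stood behind the last 2 values.

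Tgfbi (ENSMUSG00000035493, chromosome 13 from 56609523 to 56639562 of GRCm38, plus strand) encodes a secreted matrix protein that binds collagens and integrins. It had 2872 UMIs or 598 CPM (576 to 619.9) in control Scx-high cells and 436 UMIs or 427 CPM (387 to 469) in mutant ones, 1.40-fold (1.27 to 1.55) lower. Scx-low fibroblasts had 475 CPM (449 to 502) in the control library and 303 (289 to 318) in the mutant library, 1.57-fold (1.46 to 1.69) lower. Within each class the intervals of the libraries did not overlap, and in each library Scx-high cells had the higher level, while the intervals of mutant Scx-high cells and control Scx-low fibroblasts overlapped. A Tgfbi UMI was found in 79.3% and 62.9% of Scx-high cells and in 67.6% and 46.0% of Scx-low fibroblasts. Thinned, the share was 52.4% (49.4 to 55.5) and 44.8% (37.9 to 51.9) in Scx-high cells, whose intervals overlap, and 44.0% (40.2 to 47.8) and 30.4% (28.2 to 32.7) in Scx-low fibroblasts, whose intervals do not.

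By Scx range, Tgfbi was lowest in the cells with the fewest Scx UMIs, at 407 CPM in the control and 283 in the mutant library. It was highest in the range from 30 to 100, at 793 (713 to 879.5) and 496 (423 to 577) CPM. The ratio of mutant to control lay between 0.590 and 0.821 in the 5 ranges, and each interval excluded 1. For Ski the ratio lay between 0.429 and 0.762 in the 5 ranges, and the interval excluded 1 in the 3 ranges under 100.

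Scx-low fibroblasts were 70.1% of the cells of the mutant library and Scx-high cells were 48.8% of those of the control library, and these largest classes were also set side by side. Tgif1 was 3.19-fold (2.31 to 4.49) and Pmepa1 2.21-fold (1.89 to 2.59) higher in mutant Scx-low fibroblasts than in control Scx-high cells. Tgfbi was 1.97-fold (1.86 to 2.09) lower and Ski 1.78-fold (1.58 to 2.01) lower. Of the 9 members 2 were at least 2-fold higher and 0 at least 2-fold lower, against 19.6% and 5.59% of 9430 genes, and the median log2 ratio of all genes was 0.40. On the scale of that median, Tgif1 stood at 1.27, Pmepa1 at 0.74, Ski at -1.24 and Tgfbi at -1.38 (log2), so that 1 member was at least 2-fold higher and 2 were lower. This comparison mixes class and genotype and shares its cells with the comparisons above, so it adds no separate evidence.

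In immune cells, which ScxCre does not target by its promoter, 3 members had at least 50 UMIs. Pmepa1 had 51 UMIs or 106 CPM (79.2 to 139.9) in the control library and 86 UMIs or 220.1 CPM (176 to 272) in the mutant library, 2.07-fold (1.45 to 2.98) higher. It was thus 1 member at least 2-fold higher and 0 lower, against 4.10% and 3.62% of 2489 genes. A Pmepa1 UMI was found in 17.8% and 26.8% of immune cells, and thinned to 1500 UMIs in 15.6% and 16.7% (10.3 to 24.8), so the difference in level was not seen in the thinned share. Median depths were 2396.5 and 1703.5 UMIs, and thinning left out 39 and 80 cells. Tgfbi stood at 572 (506 to 644) and 525 (455 to 602) CPM, above Scx-low fibroblasts in both libraries, with a ratio between the libraries of 0.918 (0.762 to 1.10). Beside these values, the 5 fibroblast genes summed to 144 CPM in the immune cells of the control library and 1482 in those of the mutant library, and the part of this material in the Pmepa1 level was not tested.

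The other 6 members had few UMIs in immune cells. Smad7 had 6 in the control library and 14 in the mutant library, a ratio of 2.86 (1.03 to 9.09), and Skil had a ratio of 2.17 (1.05 to 4.66). The ratios of Smad2, Smad3, Smad4 and Tgif1 had intervals that included 1.

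In mural cells Ski, Pmepa1 and Tgfbi reached 50 UMIs, and 1 of them, Tgfbi, was at least 2-fold higher in the mutant library and 0 lower, against 2.65% and 3.25% of 2644 genes. Tgfbi had 35 UMIs or 58.1 CPM in the control library and 36 UMIs or 149 CPM in the mutant library, a ratio of 2.56 (1.56 to 4.20). Of the 36 UMIs, 24 came from a single cell, and a UMI was found in 18.8% of the control and 11.4% of the mutant mural cells. Without the cell with the most Tgfbi in each library the log2 ratio was 0.05, in place of 1.36. Pmepa1 was at 93.0 and 132 CPM, a ratio of 1.42 (0.891 to 2.23). The mural cells of the control library had 8979 CPM of haemoglobin transcripts and those of the mutant library 281.

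In endothelial cells no member reached 50 UMIs. Pmepa1 had 1 UMI in the control and 15 in the mutant library, and its ratio of 14.2 had an interval from 2.18 to 596. Tgfbi had 17 and 5 UMIs, 15 of the 17 in a single cell. Tgif1 had 2 and 9 UMIs, in 1 and 8 cells.

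Over whole libraries, with all 2364 and 2592 cells, Pmepa1 was 2.47-fold (2.23 to 2.75) and Tgif1 2.05-fold (1.66 to 2.53) higher in the mutant library. The ratio was 0.618 (0.588 to 0.649) for Tgfbi and 0.592 (0.537 to 0.652) for Ski, and 0.955 (0.754 to 1.21) for Smad7. These values follow the share of each class in a library as well as the levels within it.

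The other parts of the pathway were read from lists. Of 25 other genes known to be induced by TGFβ, 23 had at least 50 UMIs in Scx-high cells, and 13 of them were at least 2-fold higher in the mutant library and 1 lower, against 10.6% and 5.67% of all genes. The median log2 ratio of the list was 1.61, also with Cdkn2b at its lower bound, against 0.27 for all genes. Ltbp2, which encodes a matrix protein of elastic fibres, had 4 UMIs in control and 153 in mutant Scx-high cells, a ratio of 179.8 (68.8 to 668). Tagln, an actin-binding protein of contractile cells, stood at 19.6 and 1114 CPM and Postn, a matricellular protein, at 165 and 3572 CPM. Cdkn2b, a cell cycle inhibitor, had 0 and 62 UMIs, 97.2-fold higher against a floor of 3 counts over the control cells. The interval of its ratio starts at 76.7.

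The members of this list that were lower in mutant Scx-high cells were Col1a1, at 73942 and 21396 CPM, Cdkn1a, at 62.0 and 39.1, and Klf10, at 23.5 and 20.5 with a ratio of 0.874 (0.521 to 1.40). Col1a1, the main chain of tendon collagen, is also a tenocyte marker. In Scx-low fibroblasts all 25 genes were measured, 7 were at least 2-fold higher and 2 lower, against 4.15% and 4.40% of all genes, and the median was 0.39 against -0.03. In immune cells 4 of 8 measured genes were at least 2-fold higher and 0 lower, against 4.10% and 3.62% of all genes, with a median of 0.99 against 0.00. The 4 were Eln, at 48.0 and 2132 CPM, Postn, at 16.7 and 402, Fn1, at 273 and 735, and Cyr61, at 60.5 and 128. Klf10, Cdkn1a and Col1a1 had ratios under 1. The fibroblast genes of the class rule summed to 144 and 1482 CPM in these immune cells. The part of fibroblast material in the ratios of immune cells was not tested. In mural cells 0 of 15 were higher and 3 lower, against 2.65% and 3.25%, with a median of -0.20 against 0.09. Endothelial cells had a median of -0.28 against 0.03. Pmepa1 was thus with the higher genes of this list in Scx-high cells, while Tgfbi was not. Several of these genes, such as Tagln, Acta2 and Postn, are also known as markers of contractile or matrix-producing fibroblasts. The summed fibroblast markers in Scx-high cells were also higher in the mutant library, and a link between the lists was not tested.

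**Figure D5:**
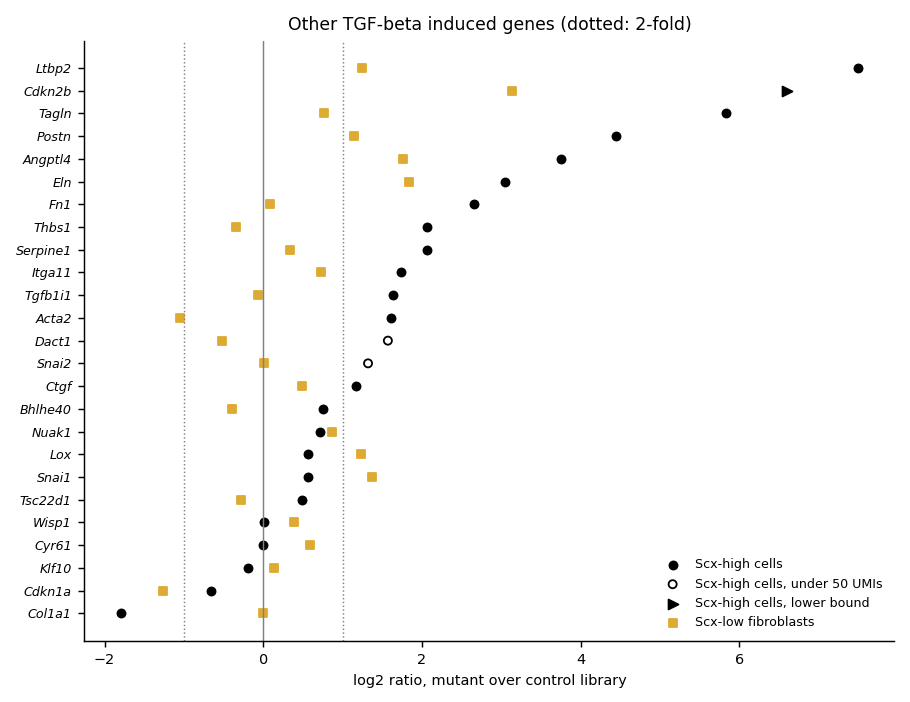
Log2 ratio of 25 other TGFβ-induced genes, mutant over control library, in Scx-high cells (black) and Scx-low fibroblasts (yellow squares). Open circles mark genes under 50 UMIs, the arrow (lower bound) a ratio against a floor of 3 counts, and dotted lines 2-fold. In Scx-high cells 13 of 23 measured genes lie at or beyond 2-fold higher and Col1a1 lies lowest at -1.79, and in Scx-low fibroblasts 7 of 25 lie beyond 2-fold higher.

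Among 19 other genes of the Smad machinery, 10 were measured in Scx-high cells, with a median log2 ratio of -0.06 against 0.27 for all genes. Of these, 1 was at least 2-fold higher and 1 lower, against 10.6% and 5.67% of all genes. Smad1, a receptor-activated Smad of the BMP branch, was 2.29-fold (1.52 to 3.40) higher in the mutant library. The deubiquitinase gene Usp15 was at 9.36 and 15.7 CPM, with a ratio of 1.67 (0.882 to 3.01), and the transcription factor gene Zeb1 at 27.3 and 34.2 CPM, with a ratio of 1.26 (0.839 to 1.84). Bambi, a decoy receptor that lacks a kinase domain, was the 1 gene at least 2-fold lower, with 1053 UMIs or 219 CPM in control and 66 UMIs or 64.6 CPM in mutant cells. Smurf2, a ubiquitin ligase, and Sp1 had 11.7 and 5.87, and 13.3 and 10.8 CPM, with intervals that included a ratio of 1. In Scx-low fibroblasts 16 of the list were measured and 0 reached 2-fold in either direction, against 4.15% of all genes higher and 4.40% lower.

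The BMP branch was read from the Id genes, which Smad1, Smad5 and Smad9 induce. In Scx-high cells 3 of 4 were measured and 0 reached 2-fold, against 10.6% of all genes higher and 5.67% lower. Id3 stood at 322 and 416 CPM, Id2 at 219 and 188 and Id1 at 95.3 and 48.9. The log2 ratio of Id1 was -0.96 (ratio 0.513, 0.375 to 0.688) where the median gene stood at 0.27. Relative to that median, Id1 was past 2-fold lower. In Scx-low fibroblasts 1 of 4 was at least 2-fold lower in the mutant library, against 4.40% of all genes, namely Id4, at 42.2 and 17.4 CPM. Id1 had a ratio of 0.541 (0.480 to 0.610) there. Set against control Scx-high cells, mutant Scx-low fibroblasts had Id4 8.38-fold higher, from 99 and 10 UMIs, and Id3 3.28-fold (3.10 to 3.47) higher, with Id1 at a ratio of 1.09 and Id2 at 0.924. Within the control library, Id4 was already 20.3-fold and Id3 2.57-fold lower in Scx-high than in Scx-low cells.

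In that same comparison of mutant Scx-low fibroblasts with control Scx-high cells, 12 of the 25 TGFβ-induced genes were at least 2-fold higher and 3 lower, against 19.6% and 5.59% of all genes and with a median log2 ratio of 0.93 against 0.40. The highest ratios were those of Ltbp2, 40.6 (15.6 to 151), of Angptl4, a secreted regulator of lipoprotein lipase, 22.1 (14.4 to 35.5), and of Postn, 15.5 (14.4 to 16.6). Cdkn2b was 15.8-fold higher against the floor of 3 counts, and the interval of its ratio starts at 12.4. Col1a1 was 6.41-fold, Wisp1 3.49-fold and Acta2 2.17-fold lower. Of the Smad machinery, 15 genes were measured, and 2 were at least 2-fold higher and 1 lower against the same shares of all genes, with Zeb2 at a ratio of 22.0 (12.1 to 44.6), Zeb1 at 2.12 and Smad1 at 1.93. Bambi was 5.36-fold lower, Smad6, an inhibitory Smad of the BMP branch, was at 0.743 (0.462 to 1.19) and Smurf2 at 0.907 (0.620 to 1.33). Class and genotype are mixed in these ratios. Within the control library, Zeb2 was 34.5-fold lower and Bambi 4.55-fold higher in Scx-high than in Scx-low cells. In Scx-low fibroblasts the ratio of mutant to control was 0.637 (0.532 to 0.765) for Zeb2.

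Genes that respond to the release of cells by enzymes, such as Fos and Jun, were followed because AP-1 factors bind beside Smads. Their summed level was 2919 CPM in control and 2642 in mutant Scx-high cells, and 3576 and 6019 CPM in Scx-low fibroblasts. In Scx-high cells 11 of the 13 genes were measured and 0 reached 2-fold, against 10.6% of all genes higher and 5.67% lower. The highest ratios were Junb at 1.21, Egr1 at 1.16 and Jun at 0.986, and the lowest Zfp36 at 0.701, Nr4a1 at 0.677 and Atf3 at 0.659. In Scx-low fibroblasts 3 of 12 were at least 2-fold higher in the mutant library, Fos, Junb and Zfp36, against 4.15% of all genes. Against control Scx-high cells, mutant Scx-low fibroblasts had 4 of 12 at least 2-fold higher, where 19.6% of all genes were, led by Junb at 3.29, Hspa1a at 3.25 and Zfp36 at 2.70, and the lowest ratios were those of Atf3 at 1.32, Fosb at 1.19 and Btg2 at 0.939. The part of this response in the values of the 9 genes was not tested.

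The genes with the pattern of levels most like 4 of the members over the 10 groups (5 classes in 2 libraries) were found among 3961 genes with at least 500 UMIs. Likeness is Pearson's r of log2(CPM + 1), given as a description over 10 groups that share 2 libraries. The highest r among so many genes over so few groups can be high by chance alone, which was not tested. Some groups held few counts, such as 1 UMI each of Pmepa1 and Skil in control endothelial cells. For Pmepa1 the genes most alike were Uqcrb, Mt1 and Wbscr22, each at 0.88. For Smad7 they were Srsf3 at 0.96, Emc6 at 0.95 and Ndufaf2 at 0.92, for Skil Rnaset2b at 0.86 and Prdx1 and Dnajc9 at 0.85, and for Tgfbi Cdc123 at 0.89 and Uap1l1 and Zfp622 at 0.88. Smad2, Smad3, Smad4, Smad7, Skil and Tgif1 had under 500 UMIs and could not be found by this search. Of Ski, Pmepa1 and Tgfbi, none was among the genes listed for another member.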

How the data were processed

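The authors made 10x Genomics 3′ libraries, aligned the reads to mm10 with Cell Ranger (1.2.0 in the submitters' processing notes, a later version in the study's methods) and filtered barcodes by total UMI count. The deposited values are raw UMI counts per gene and cell, not normalized, and all 4956 barcodes were used, with 903 to 15968 UMIs each. The 9 genes, the gene lists and the rules were chosen with earlier results of these data known.

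For each class the UMIs of its cells were added up. Ratios of CPM have exact conditional 95% intervals and shares of cells exact (Clopper-Pearson) binomial ones. Shares were also computed with each cell thinned to 1500 UMIs, shallower cells left out. The genes named are the 9 members, Tgfbr2, the 3 highest and 3 lowest of each list in Scx-high cells and in mutant Scx-low fibroblasts over control Scx-high cells, and the 3 most alike in pattern. Id4, Fos, Junb and Zfp36 in Scx-low fibroblasts, the TGFβ-induced genes in immune cells and the marker genes were named after their values were seen. Haemoglobin-rich, Schwann, muscle and unassigned cells and cells of more than 1 type were left out of the 5 classes. Scrublet, at an expected rate of 0.02, called 1.10% and 0.309% of cells as doublets, too few in the mutant library to show that the caller worked, and these cells stayed in. How strand was used in counting was not given in the sources used here. Smad4 overlaps a processed pseudogene on the other strand. The ratio was tested on simulated data of 7331 genes for the Scx-high comparison. There, 95.9% of intervals held the true ratio and 100.0% of 200 changed genes had the right direction. The simulated sums followed the counting model that the interval assumes, so they check the computation and not the spread between cells or libraries. Python 3.11.15, NumPy 2.4.6, SciPy 1.17.1, pandas 2.3.3, Scanpy 1.11.5 and GENCODE M21 were used. Promoters are from RefSeq, and the entries of 4 members (Smad3, Ski, Tgfbi and Tgif1) were searched. Alternatives covered the class limits, the total, centring, the weight of cells, cell filters and the fold, and 1 more, leaving out the cell with the most UMIs of a gene, was added after seeing the data.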

Additional observations from a re-analysis of the deposited data

Results flagged for a closer look

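Smad7 and Tgfbi differed between the libraries in opposite directions in different cell classes, with counting intervals on either side of 1. For Smad7 the log2 ratio of mutant to control was 1.06 in Scx-high cells and 1.52 in immune cells, and -0.70 in Scx-low fibroblasts. With the cell richest in Smad7 left out of each group these became 0.99, 1.29 and -0.67. For Tgfbi it was 1.36 in mural cells, and -0.49 in Scx-high cells, -0.65 in Scx-low fibroblasts and -1.85 in endothelial cells. With the richest cell left out, the mural value became 0.05 and the endothelial value 0.55, so both rest on single cells, and the Scx-high and Scx-low values became -0.52 and -0.64. With 1 library per group the difference between classes was not tested.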

How the results depend on the processing

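Of 51 log2 ratios with at least 50 UMIs, 41 kept their direction under all 13 alternatives, and none of the 10 others was 2-fold in the main setting. Pmepa1 in Scx-high cells ranged from 2.77 to 3.24. The direction changed under some for Smad3 and Smad4 in Scx-high cells, Smad4 in Scx-low fibroblasts, Tgfbi in immune and Pmepa1 in mural cells, and for Smad2, Smad3 or Skil in comparisons between classes. Counts of members past 2-fold moved with small shifts. In Scx-high cells the 3 higher members became 1 with a type minimum of 3 UMIs, with the 20 most abundant genes left out, on centring, with equal weight per cell and without the richest cell, 2 without cycling cells, and 5 at 1.5-fold, where the lower count became 1. In Scx-low fibroblasts 3 were 1.5-fold lower. Between control classes the 2 lower became 1 with an Scx limit of 10, without the top 20 genes, with equal weight or without cycling cells, and 0 on centring. In the mutant library the 1 higher became 2 with an Scx limit of 100 or at 1.5-fold, where 1 was lower. In mutant Scx-low over control Scx-high cells the 2 higher became 1 without the top 20 genes, on centring or with equal weight and 4 at 1.5-fold. The 0 lower became 1 with an Scx limit of 10, equal weight or no cycling cells, and 2 without the top 20 genes, on centring or at 1.5-fold. The 1 higher in immune cells became 0 with an Scx limit of 10, and 1 was lower at 1.5-fold. The 1 higher in mural cells became 0 with a type minimum of 3, equal weight or without the richest cell, and the lower count became 1 with equal weight or at 1.5-fold. Causes were not tested. After thinning, 30 of 90 shares stayed within their first interval. Thinning discards counts and so lowers most shares by design, and this count does not bear on differences between the libraries. Counts of members were not given for endothelial cells, and leaving out a replicate was not possible. No paired analysis was possible because there is 1 library per group.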
